A study of Vigna unguiculata with 30 samples.

Results

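Leaves from the top of a cowpea canopy were compared with leaves from its bottom at the reproductive stage R1. The 10 libraries were chosen by their sample labels alone, 5 labelled top and 5 labelled bottom at R1, out of 30 in the series. All come from the cowpea (Vigna unguiculata) line IT97K-499-35, sampled as punches from leaves of plants grown in the ground of a greenhouse, at week 5.5 after planting for R1 and week 6.5 for R3. The other libraries, 5 each from the middle of the canopy at R1 and from bottom, middle and top at R3, served for the shared estimate of the spread and for the comparisons named below. No genotype or treatment separates the groups. All plants stood 3 inches apart in rows 30 inches apart, under extra light of 1000 µmol per square metre per second with 14 h of day and 10 h of night. The replicates are called biological in the labels, which do not say whether each came from its own plant, so a p-value measures the spread between these samples.

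Leaves high in a legume canopy are as a rule younger and better lit, and leaves at the bottom older and shaded. In the older leaves nitrogen held in the photosynthetic machinery is moved toward growing organs and filling pods. Canopy position carries leaf age and light together, and these samples cannot tell them apart. In bulk leaf RNA, fewer cells of a type and less RNA per cell cannot be told apart either. The gene identifiers come without product names and 0 of the 31948 gene models matched the RefSeq gene table used here. The leaf label could therefore not be checked against marker genes, and no pathway is named. Gene models are described by position, structure and level; the identifiers are given without the suffix for the annotation version that all of them carry.

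The top R1 libraries held 10.5 to 13.5 M counts and the bottom R1 libraries 11.5 to 17.4 M. Levels are in CPM, a gene's counts per M counts of its library, M standing for mega. Library sizes were first multiplied by a factor from edgeR's trimmed mean method (TMM), which was 0.881 to 1.10 at the top and 1.04 to 1.23 at the bottom. A principal component analysis of the 10 libraries placed the 5 top libraries at scores of 27.8 to 92.3 on the first component, which held 62.4% of the variance. The 5 bottom libraries lay at -93.2 to -40.7. Top replicate 5 (27.8) and bottom replicates 4 (-40.7) and 5 (-46.7) lay nearest to the other group on this axis. The same 3 libraries had the highest scores on the second component (10.3% of the variance), at 39.0, 37.6 and 42.2, with all others at 6.92 or less. Over the tested genes, the median absolute difference in log2 CPM was 0.30 between top libraries (10 pairs, 0.23 to 0.45) and 0.37 between bottom libraries (10 pairs, 0.25 to 0.45). Between a top and a bottom library it was 0.57 (25 pairs, 0.39 to 0.80). Middle libraries differed from top ones by 0.41 and from bottom ones by 0.43 in the median. Some pairs across the groups were therefore no farther apart than some pairs within a group.

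**Figure D1:**
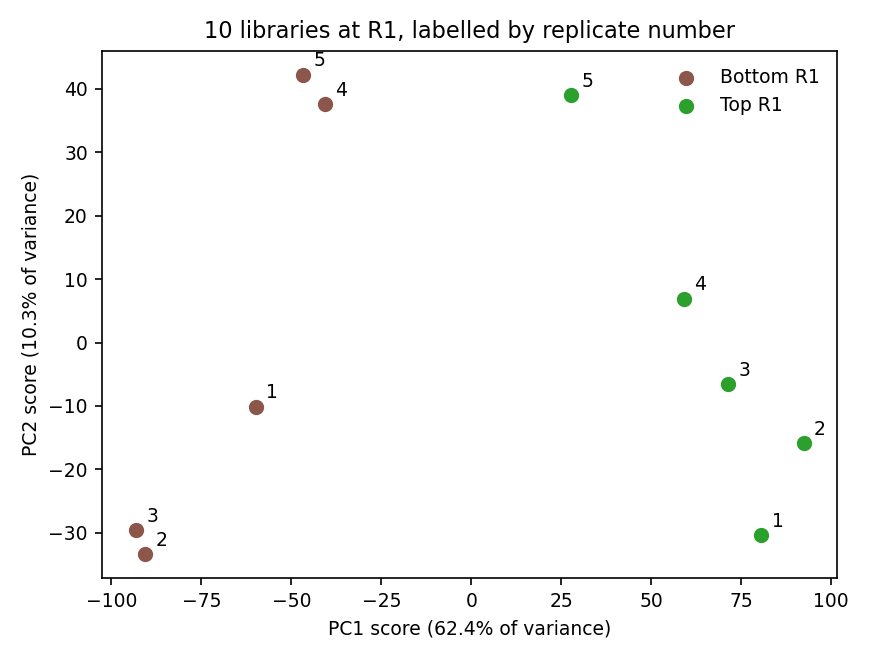
First and second principal component scores of log2(CPM + 1) for the 5 top (green) and 5 bottom (brown) libraries at R1; each point is 1 library, labelled by its replicate number. The groups stand apart on the first component, with top replicate 5 and bottom replicates 4 and 5 closest to the gap.

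Top leaves carried a wider set of transcripts than bottom leaves. In top replicates 1 to 5, 23329, 23328, 23271, 23588 and 22888 gene models were detected, that is, had a count. In bottom replicates 1 to 5 there were 22166, 22722, 22134, 22213 and 22639. Every top library exceeded every bottom library, by 906 gene models in the mean (23281, range 22888 to 23588, against 22375, range 22134 to 22722, n = 5; p = 0.00794 by a two-sided exact permutation test, 0.0204 after adjustment over 18 tests). The top libraries were not the deeper ones: with all libraries thinned to the smallest total the difference was 1024 gene models. Middle leaves at R1 had 22361 to 22715 gene models with a count, within the range of bottom leaves. At R3 the top and bottom libraries overlapped (22865 ± 657 and 22665 ± 363, n = 5; exact permutation p = 0.643); whether the difference itself changed between the stages was not tested.

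At the same time the counts of top leaves were held by fewer abundant genes than those of bottom leaves. In each library, the smallest number of gene models that together hold 50% of the counts was 938, 506, 664, 859 and 738 in top replicates 1 to 5. It was 904, 1382, 1194, 944 and 1092 in bottom replicates 1 to 5, so that bottom replicate 1 lay below the highest top library. The means were 741 ± 169 and 1103 ± 194 (SD, n = 5; exact permutation p = 0.0159, adjusted 0.0317). The 10 most abundant genes of a library took 7.94% ± 1.04 of the counts at the top and 6.25% ± 0.942 at the bottom (n = 5; exact permutation p = 0.0317, adjusted 0.0476). Middle leaves at R1, at 717 ± 152 gene models and 8.76% ± 1.19, were not less concentrated than top leaves in the mean. At R3 top and bottom libraries did not overlap in either measure (n = 5; exact permutation p = 0.00794, adjusted 0.0204 for each). The means there were 527 ± 73.1 and 1198 ± 151 gene models, and 9.82% ± 0.810 and 5.96% ± 1.12. Both calls at R1 lie near the threshold. The first ended without top replicate 2, 3, 4 or 5 or bottom replicate 2, 3 or 5 (exact permutation test, adjusted p = 0.0536 to 0.0595), and the second without any 1 library except top replicate 1 and bottom replicate 4 (0.0510 to 0.0918).

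Gene structure divided the transcript pool as well. Gene models with an exon length of 3000 bases or more took 19.3%, 17.1%, 18.3%, 19.0% and 18.8% of the counts in top replicates 1 to 5. In bottom replicates 1 to 5 they took 21.7%, 22.8%, 21.9%, 20.9% and 20.5%, so that the groups did not overlap (18.5% ± 0.853 and 21.6% ± 0.923, SD, n = 5; exact permutation p = 0.00794, adjusted 0.0204). The R3 libraries, which share no sample with these, showed 16.6% ± 0.941 at the top and 21.0% ± 1.25 at the bottom, again apart (n = 5; exact permutation p = 0.00794, adjusted 0.0204). Models with 1 exon block (exon records merged where they overlap) went the other way, with 10.4% ± 0.961 of the counts at the top and 8.58% ± 0.711 at the bottom at R1 (n = 5; exact permutation p = 0.00794, adjusted 0.0204). The lowest top library, at 9.56%, was just above the highest bottom library, at 9.54%. This call ended without bottom replicate 2, 3 or 5 (exact permutation test, adjusted p = 0.0571 each). At R3 the groups overlapped and the test was not passed (10.6% ± 1.08 and 8.95% ± 0.943, n = 5; exact permutation p = 0.0397, adjusted 0.0510). Models under 1000 bases took 10.6% ± 0.624 and 9.50% ± 0.559 (n = 5; exact permutation p = 0.0317, adjusted 0.0476), a call that ended without any 1 library except top replicate 1 and bottom replicate 4 (0.0510 to 0.0769). For models with 10 or more exon blocks, 24.6% ± 1.21 at the top and 25.6% ± 0.696 at the bottom, the test was not passed at R1 (n = 5; exact permutation p = 0.159, adjusted 0.190). It was passed at R3, with 22.5% ± 0.799 and 24.5% ± 1.06 (n = 5; exact permutation p = 0.0159, adjusted 0.0317).

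**Figure D2:**
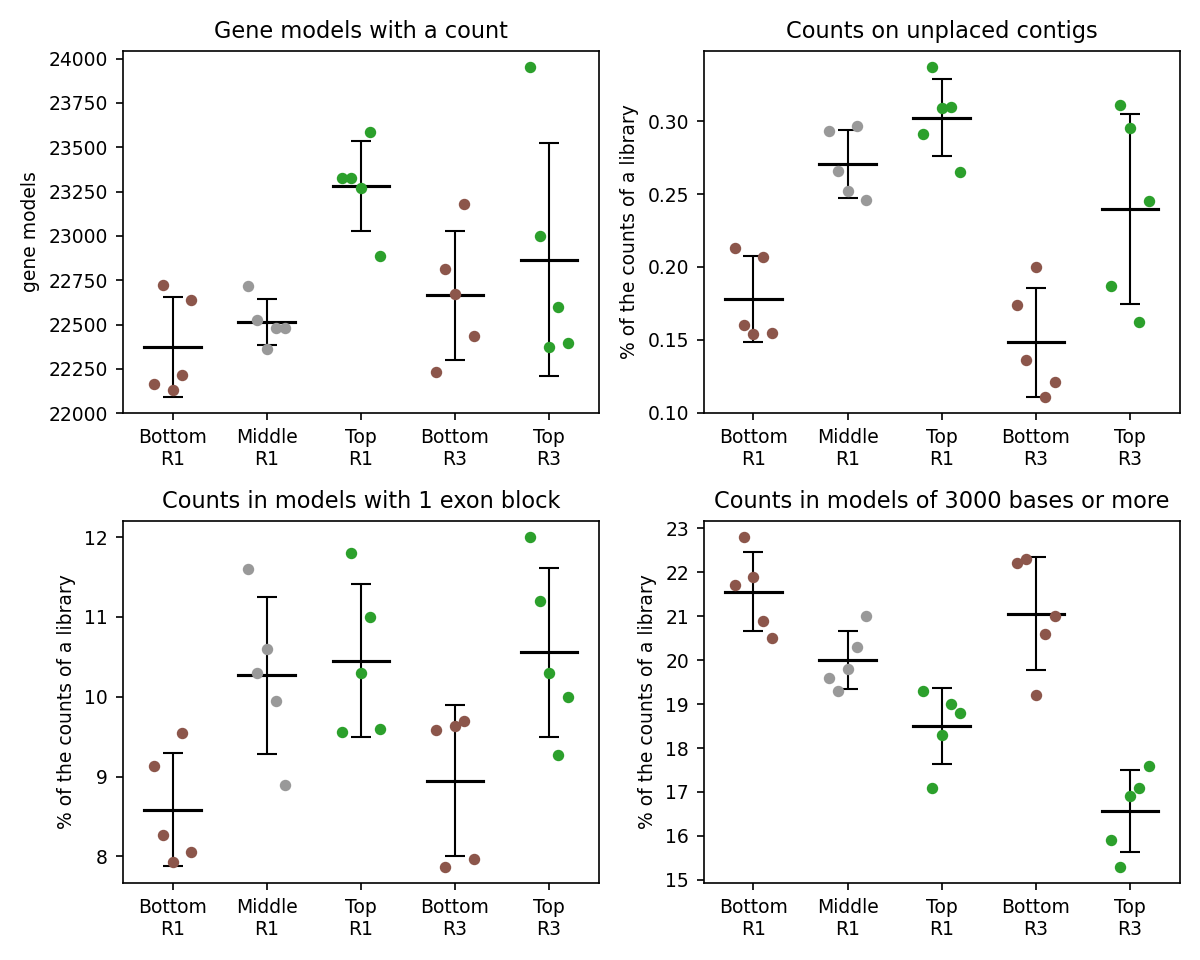
Per library (points; horizontal line and bar, mean and SD of 5 libraries; vertical axes do not start at 0): the number of gene models with a count, and the percent of counts on unplaced contigs, in models with 1 exon block and in models of 3000 bases or more, for bottom (brown), middle (grey) and top (green) leaves. At R1 the top and bottom points do not overlap in any of the 4 panels; at R3 they are apart for models of 3000 bases or more (16.6% and 21.0% in the mean).

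Gene by gene, 8731 genes differed between top and bottom leaves at R1 in edgeR's quasi-likelihood test at a Benjamini-Hochberg adjusted p under 0.05, which is 43.0% of the 20284 genes tested. At the top 4506 (22.2%) were higher and 4225 (20.8%) lower. With TMM scaling the higher genes had larger estimated changes, 2882 (14.2% of genes tested) being at least 2-fold higher and 1719 (8.47%) at least 2-fold lower. The median log2 fold change was 1.35 for the higher and -0.82 for the lower genes. Changes of 64-fold or more made up 5.59% of the higher and 0.615% of the lower calls. Large changes lay in rarer genes. Higher genes had a median level of 1.16 CPM per kb of exon length at 64-fold or more and 12.4 under 2-fold. For lower genes these medians were 1.47 and 14.1. Size of change and level were thus not separated. Of the called genes, 63.8% had 5 top and 5 bottom CPM values that did not overlap, as had 28.7% of all genes tested (15.4% with the top above and 13.3% with the top below). The balance of directions rests on TMM scaling: with library size alone, 3622 genes were higher and 5448 lower. Log2 fold changes moved by -0.15 in the median. At 2-fold or more, 12.0% of tested genes on chromosomes were then higher and 10.9% lower, in place of 14.0% and 8.57% with TMM. Without the 3 libraries nearest to the other group, 9151 genes were called, and 7659 of these calls were shared with the full set in the same direction. These 3 were chosen after seeing the data, and leaving them out sets the groups farther apart. The count therefore cannot show how stable the calls are.

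The called genes shifted a large part of the RNA. At R1 the 4506 higher genes held 37.1% ± 3.90 (SD, n = 5) of all counts at the top and 17.1% ± 4.13 at the bottom, which describes the libraries that chose them. The R3 libraries entered the filter, the scaling and the estimate of the spread, but not this contrast. In them the same genes held 37.0% ± 5.19 at the top (31.6% to 45.0%) and 14.0% ± 2.67 at the bottom (11.5% to 18.3%). The 4225 lower genes held 14.2% ± 1.89 at the top and 31.4% ± 6.50 at the bottom at R1, and 14.3% ± 2.59 and 33.1% ± 5.57 at R3. In middle leaves at R1, the higher genes held 27.3% ± 2.76 and the lower genes 20.1% ± 1.38 of the counts. Gains were more concentrated than losses. Of the CPM gained at the top, summed over the 10261 genes with a higher mean, 105 genes made up 50%. Of the CPM lost, summed over 10023 genes, it took 397. With library size alone these numbers were 90 and 513.

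The balance of higher and lower calls differed between classes of level. Genes were classed by their mean over all 30 libraries in CPM per kb of exon length, so that long and short models could be compared. That mean includes the top and bottom libraries compared, and a rare gene passed the filter on low counts only if it was high enough in some group, so the shares in the lowest classes partly follow from the choice of genes and are given as a description. Among the 2604 genes under 1 CPM per kb, 34.2% were higher and 9.41% lower at the top, and the median log2 fold change was 0.71. From 10 to 30 CPM per kb (5337 genes) the order was the opposite, with 15.6% higher, 28.5% lower and a median of -0.15. At 1000 CPM per kb or more, 35 of the 65 genes (53.8%) were higher and 6 (9.23%) lower, with a median of 0.90. Among rare and among very abundant transcripts higher calls outnumbered lower ones, and from 3 to 100 CPM per kb lower calls outnumbered higher ones. With library size alone each class had the same sign of its median except the class from 100 to 300 CPM per kb, which went from 0.11 to -0.03. At R3 the median log2 fold change was 0.51 under 1 CPM per kb, -0.16 from 10 to 30 and 1.58 at 1000 or more. Precision differed with level: the median standard error of a log2 fold change was 0.61 under 1 CPM per kb and 0.18 from 10 to 30 CPM per kb.

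**Figure D3:**
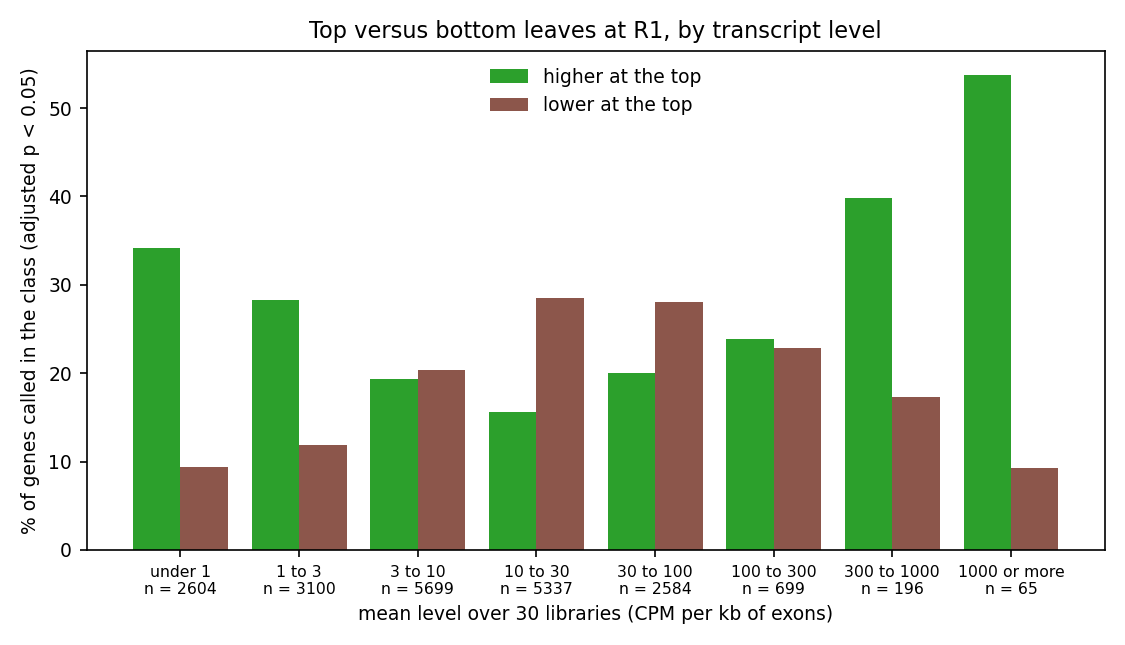
Percent of the tested genes called higher (green) or lower (brown) in top than in bottom leaves at R1 (edgeR adjusted p under 0.05), by mean level over 30 libraries in CPM per kb of exons; the number of genes tested stands under each pair of bars. Higher calls lead in the rarest (34.2%) and the most abundant class (53.8%), lower calls from 10 to 30 CPM per kb (28.5%).

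Over all levels, calls at 2-fold or more were more frequent in genes with few exon blocks. Of the 2675 tested genes with 1 exon block, 17.8% were at least 2-fold higher and 14.5% at least 2-fold lower at the top (15.1% and 16.8% with library size alone, where the order turned). Of the 2998 genes with 11 to 20 exon blocks the shares were 10.9% and 4.20%. The estimates were less precise for genes with 1 exon block, with a median standard error of 0.43 against 0.18 for 11 to 20. From 3 to 30 CPM per kb these were 0.36 and 0.15. Median log2 fold changes over all levels were 0.04 and 0.01. How far precision enters the 2-fold shares was not tested. Within classes of level the order depended on the class. From 3 to 30 CPM per kb, genes with 1 exon block were at least 2-fold lower in 17.1% of cases and at least 2-fold higher in 13.9%, and genes with 11 to 20 exon blocks in 3.61% and 6.20%. Under 3 CPM per kb the 1-exon genes were more often at least 2-fold lower (10.9% and 4.13%) and less often at least 2-fold higher (20.4% and 29.2%). Short and long models also differed in the balance of calls at any size, with 19.9% higher and 14.8% lower under 1000 bases, and 14.8% higher and 24.1% lower at 5000 bases or more. With library size alone the models under 1000 bases had 16.3% higher and 19.0% lower, so that their order turned, while those of 5000 bases or more had 10.2% and 33.8%.

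Chromosome mattered little. The share of genes higher at the top ran from 20.5% (chromosome 2) to 23.0% (chromosome 3) over the 11 chromosomes, near the 22.2% of all genes. The share lower ran from 18.6% (chromosome 10) to 25.1% (chromosome 2). In the outer 10% of the chromosomes at either end 22.2% were higher and 21.3% lower, and in the inner 20% of their length 23.1% and 19.5%. Adjacent genes shared a direction at shares near the background, with the widest gap for genes at least 2-fold lower. Of genes higher at the top, 24.2% were followed on the chromosome by another higher one (22.0% of chromosomal genes tested were higher), and of lower genes, 23.9% by a lower one (21.1%). At 2-fold or more the shares were 16.3% for higher genes (14.0% of all) and 13.7% for lower genes (8.57%). Runs of 3 or more neighbours called in 1 direction numbered 209 for higher and 183 for lower genes when untested gene models were skipped, and 120 and 102 when an untested model ended a run. No count expected by chance was computed for them.

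Among tested genes, with untested models skipped, the longest run of higher genes lay on chromosome 7, from 28191947 to 28282299 in the coordinates of the count table (no source used here names the genome build). Its 7 genes span 90.4 kb with 10 gene models in all, 3 of the 7 on the plus and 4 on the minus strand. Counting every model, the longest run of higher genes was 5. Their log2 fold changes at R1 ran from 0.33 to 7.61 (edgeR adjusted p of 0.035 or less), and 5 of the 7 had top and bottom values that did not overlap. All 7 were called higher at R3 too. A run of 6 lower genes on chromosome 7, from 33837827 to 33941394 (7 models in all), had log2 fold changes from -4.09 to -0.93 (edgeR adjusted p of 0.034 or less), with no overlap between the groups for any of the 6. All 6 were called lower at R3. The other runs of 6 were less even. That of higher genes on chromosome 3, from 32455173 to 32819567 (10 models in all), had 4 of 6 called in the same direction at R3. So had that of lower genes on chromosome 8, from 7919392 to 8227983 (16 models in all), where 1 of the 6 changed at least 2-fold. The runs were chosen by their R1 calls, and 63.8% of all called genes had no overlap between the groups. By size of change, 74.3% to 94.8% of all higher and 72.5% to 92.3% of all lower calls were made again at R3. The counts for the runs are a description beside these shares.

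Gene models on unplaced contigs, the sequence pieces not joined to a chromosome, took 0.302% ± 0.0267 of the counts at the top and 0.178% ± 0.0297 at the bottom (SD, n = 5; exact permutation p = 0.00794, adjusted 0.0204), without overlap. Of the 221 tested, 87 (39.4%) were higher at the top and 0 lower in edgeR, beside 22.2% and 20.8% of all genes. With library size alone 81 were higher and 2 lower. The 87 lay on 28 of the 62 contigs with a tested gene, 21 of them on the contig with the most (57 genes). Contig models were rarer, with a median of 3.34 CPM per kb against 7.98 for all genes tested. Of all genes from 1 to 3 CPM per kb, 28.3% were higher and 11.9% lower, and from 3 to 10, 19.4% and 20.4%. At R3, 112 of the 221 were called higher and 5 lower, beside 26.1% and 25.8% of all genes. The share of the counts on contigs at R3, 0.240% ± 0.0652 at the top and 0.148% ± 0.0374 at the bottom, overlapped and did not pass (n = 5, exact permutation p = 0.0397, adjusted 0.0510).

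Transcripts seen in top leaves and missing from bottom leaves were more frequent than the reverse. There were 204 gene models with a count in all 5 top libraries and 0 counts in all 5 bottom libraries at R1, and 24 with a count in all 5 bottom and 0 in all top libraries. In edgeR 84 of the 204 and 3 of the 24 were called, beside 43.0% of all genes tested. With at least 1 CPM required in each of the 5 libraries of the group with counts, 26 were left for the top and 0 for the bottom. The 26 had a median of 4.47 CPM in top leaves (1.71 to 149). If the bottom libraries are given 3 counts in all, 0.0409 CPM over the 5, they were at least 42.0-fold to at least 3643-fold higher, for counting error only. Other groups did carry these transcripts. All 26 had counts in some middle R1 library (median 0.601 CPM), and 25 had counts in some bottom R3 library (median 0.0625 CPM). At R3 23 of the 26 were called higher at the top, where the median was 1.93 CPM. So were 26.1% of all genes tested and 94.8% of those at least 64-fold higher at R1. For 14 of the 26 the R3 groups did not overlap, a share not computed for all genes. The 26 were chosen by their R1 values, so these counts are a description and no test. They were spread over 11 places, where each chromosome is 1 place and all unplaced contigs together are 1. Of the 26, 8 had 1 exon block, as had 13.2% of all genes tested.

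Genes were named by a rule, the 2 higher and the 2 lower genes with the largest difference of means among those called at 2-fold or more without overlap between the groups or of exons with another model. Larger differences that failed a criterion were passed over; 3 of the first 10 gains and 2 of the first 10 losses were not called. Vigun04g188900 (chromosome 4, 41297382 to 41301630, minus strand, 10 exon blocks) stood at 6206, 4955, 8720, 7494 and 4736 CPM in top replicates 1 to 5. In bottom replicates 1 to 5 it stood at 895, 164, 345, 554 and 1344 CPM. The lowest top library was thus far above the highest bottom one (log2 fold change 3.28, SE 0.71, edgeR adjusted p = 0.00069). The mean of middle leaves was 2020 ± 810 CPM (755 to 2973), overlapping the bottom libraries, and neither the step from bottom to middle (edgeR adjusted p = 0.13) nor that from middle to top (0.093) passed. Its log2 fold change at R3 was 4.04 (SE 0.73, adjusted p = 7.5e-05). Per kb of exons, its level was 3247 CPM at the top and 334 CPM at the bottom.

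Vigun07g296000 (chromosome 7, 40641707 to 40644356, plus strand, 7 exon blocks) stood at 7636, 3928, 5630, 4684 and 6690 CPM in top replicates 1 to 5. Bottom replicates 1 to 5 gave 788, 30.8, 37.1, 2752 and 547 CPM, a wide spread in which replicate 4 was high and replicates 2 and 3 were low. The log2 fold change was 2.78 (SE 0.92, edgeR adjusted p = 0.016). With 1 library left out it was 2.47 to 4.02, the highest without bottom replicate 4. In an edgeR fit of the 2 groups alone its adjusted p was 0.049. Middle leaves, at 7629 ± 1245 CPM, were not below the top ones. The contrast of top with middle leaves had a log2 fold change of -0.42 (edgeR adjusted p = 0.78), and that of middle with bottom leaves 3.20 (adjusted p = 0.035).

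Vigun08g036100 (chromosome 8, 3471918 to 3478879, minus strand, 9 exon blocks) had the largest loss among the genes that met the rule, with 400, 210, 332, 347 and 1224 CPM in top replicates 1 to 5. In bottom replicates 1 to 5 it stood at 3819, 7335, 6560, 2986 and 1726 CPM. The groups did not overlap, although top replicate 5 and bottom replicate 5 came close (log2 fold change -3.16, SE 0.67, edgeR adjusted p = 0.00060). With 1 library left out the log2 fold change was -3.80 to -2.91, the largest fall being without top replicate 5. In middle leaves its level was 999 ± 550 CPM, and the log2 fold change between top and bottom at R3 was -3.15.

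Vigun09g038500 (chromosome 9, 3418067 to 3422589, minus strand, 7 exon blocks) was abundant at every position and fell by 1.27 on the log2 scale (SE 0.33, edgeR adjusted p = 0.0029). Its levels were 1099, 1832, 1770, 2398 and 4032 CPM in top replicates 1 to 5 and 5557, 5905, 6310, 4614 and 4513 CPM in bottom replicates 1 to 5. Top replicate 5 again lay nearest to the bottom leaves. At R3 the log2 fold change was -1.72 (SE 0.33, adjusted p = 0.00014).

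**Figure D4:**
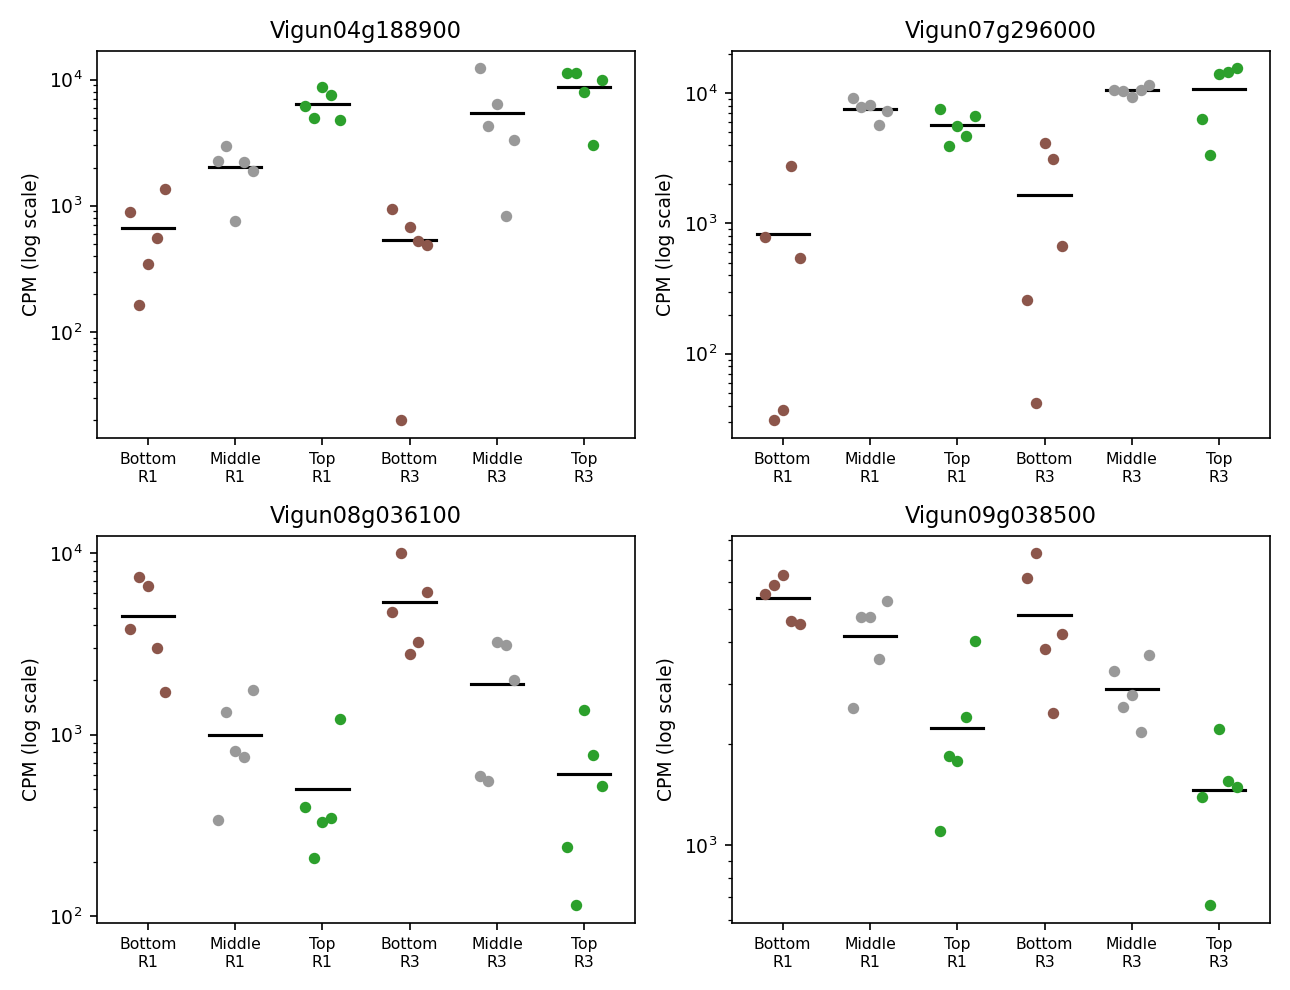
CPM (log axis) of the 2 higher and 2 lower genes named by the rule, in each library (points) of the 6 groups; horizontal lines are group means. Top and bottom points at R1 do not overlap for any of the 4 genes, and Vigun07g296000 spans 30.8 to 2752 CPM in bottom leaves.

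Middle leaves fell between the extremes for most genes. Of the 2882 genes at least 2-fold higher at the top, 89.8% had a mean log2 CPM in middle leaves between those of bottom and top leaves, and for 59.9% it was nearer to the bottom. The median log2 CPM over these genes rose along the canopy from 0.65 (bottom) to 1.60 (middle) and 2.98 (top). For the 1719 genes at least 2-fold lower, 93.3% had the middle between, 62.0% nearer to the bottom, with medians of 4.32, 3.60 and 2.45. Since the genes were chosen for a large distance between top and bottom, a middle value between them is partly fixed by the choice, and no test is given.

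The R3 libraries are a separate set of 10 leaf samples for the same contrast, 1 week later. There 10534 genes differed in the same fit (51.9%), 5300 higher (26.1%) and 5234 lower (25.8%). At 2-fold or more there were 5980 (29.5%), of which 3579 (17.6%) were higher and 2401 (11.8%) lower. Chosen at R1, the genes that moved most were the ones most often called again, though the rise was not steady for lower genes. Of these, 84.6% were called lower again at 8 to 16-fold, 78.7% at 16 to 64-fold and 92.3% at 64-fold or more. Of the genes at least 64-fold higher at R1, 94.8% were called higher at R3. Of the 1624 called higher by less than 2-fold, 74.3% were, and of the 2506 called lower by less than 2-fold, 72.5% were called lower. Genes called 2 to 4-fold higher at R1 had medians of 1.41 at R1 and 1.55 at R3, and those 2 to 4-fold lower -1.36 and -1.20. With the choice made at R3, genes 2 to 4-fold higher had medians of 1.42 at R3 and 0.94 at R1. For genes 2 to 4-fold lower at R3 they were -1.41 and -0.96. For the largest changes R3 gave less, 7.47 and 5.16 for genes at least 64-fold higher and -7.01 and -4.89 for those at least 64-fold lower. Chosen at R3 instead, genes at least 64-fold higher had medians of 7.19 at R3 and 6.42 at R1. Those at least 64-fold lower at R3 had -6.59 and -3.56, and 56.2% of these 32 were called lower at R1. Of genes less than 2-fold lower at R3, 61.3% were called lower at R1, so this share did not rise with size. For higher genes chosen at R3 it was 46.1% under 2-fold and 91.8% at 64-fold or more. Genes chosen for an extreme value at 1 stage are partly bound to give less at the other. None of these medians of moderate or large changes therefore compares the stages.

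The difference between the stages was tested directly as the interaction of stage and position. In edgeR 0 genes passed at an adjusted p under 0.05 (0% of 20284), the smallest adjusted p being 0.052, while 3089 (15.2%) had an unadjusted p under 0.05. DESeq2 called 470, and edgeR called 298 without bottom R1 replicate 2. A count of 0 here does not show that the stages were alike. Among the 3089, the top to bottom difference had the same sign at both stages and was larger at R3 in 1543, larger at R1 in 415. In 1131 the sign was opposite. These genes were picked by an unadjusted p, and the same split was not computed over all 20284 genes. It therefore does not show at which stage the difference was larger. None of the 4 genes named above had an adjusted p under 0.69 for this interaction.

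**Figure D5:**
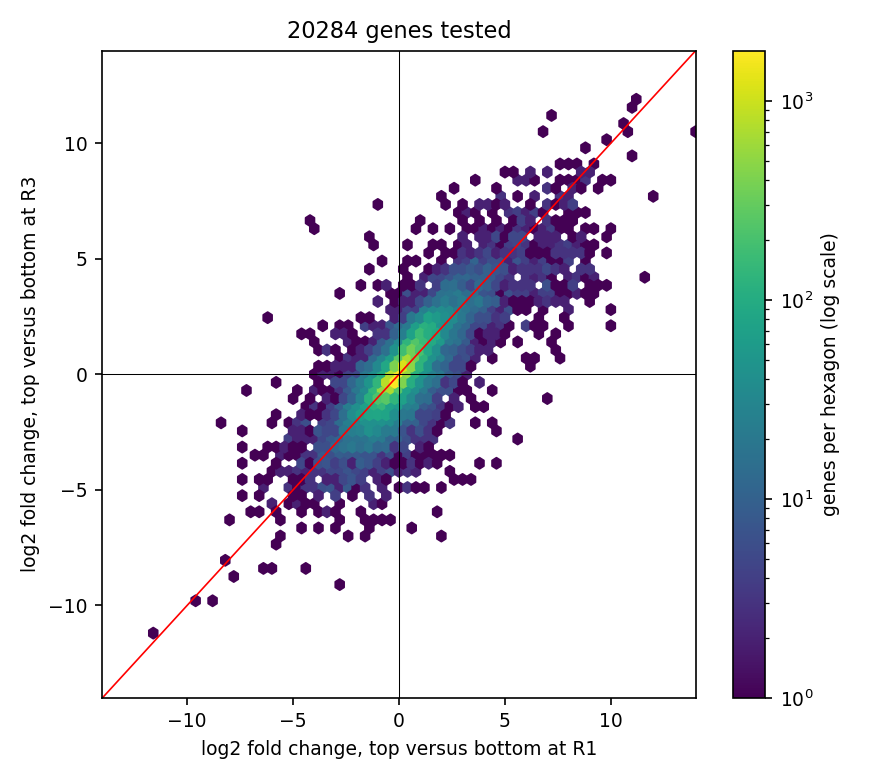
Log2 fold change of top over bottom leaves at R1 (horizontal) and at R3 (vertical) for the 20284 genes tested; colour gives the number of genes per hexagon on a log scale and the red line marks equal change. Most genes lie along the line, and the genes at least 64-fold higher at R1 lie mostly below it (median 7.47 at R1 and 5.16 at R3). That is partly fixed by choosing them at R1.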

How the data were processed

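PolyA RNA of leaf punches was extracted with MagMAX and made into Kapa HyperPrep libraries, per the labels' protocols. The authors deposited raw counts per gene model, used here, and a normalized table, not used here. The submitters' processing notes list HISAT2, featureCounts and DESeq2, with neither version nor role. No source used here gives the strand setting, the handling of shared reads or the build, so counts of overlapping or near-identical genes are uncertain (1084 gene models share exon bases with another). The deposited exon lengths equal the merged exon records of each model; exon blocks are those merged records. Titles gave each sample's group and replicate, and 0 value columns were left over. Members, lists and tests were chosen with earlier results of these data known.

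Genes were filtered by filterByExpr by group and fitted with edgeR 4.0.16 in R 4.3.3 (TMM, quasi-likelihood, all 6 groups, 24 residual degrees of freedom). The SE of a log2 fold change is its size over the root of the F statistic. Log2 CPM used a prior count of 2, and the principal components log2(CPM + 1). Per-library measures were compared by exact permutation over all assignments of the 10 libraries, with Benjamini-Hochberg adjustment over 18 tests (9 measures at 2 stages). Within the R1 groups, chi-square per degree of freedom between 2 libraries was 25.6 to 131 (genes with 20 counts or more in the pair), far above sampling noise, so each library counted once. Named genes followed a rule: 2 higher and 2 lower by CPM difference, and, for the interaction, called genes of at least 5 CPM, of which there were none; models with overlapping exons were skipped. Depth of 10.5 to 17.4 M counts per library limits low genes; floors cover counting error only. Alternatives were other scalings, no filter, a replicate block, DESeq2 1.42.0, fits of the compared groups alone, thinning, and leaving out libraries. Gene lists by product and sequences were not analysed here.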

Additional observations from a re-analysis of the deposited data

Results flagged for a closer look

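Of 60 groups of 5 libraries examined (the named genes in 6 groups, the per-library measures in 4), 2 held 1 library far from the rest, where chance gives about 1 in 20. Bottom R1 replicate 4 stood at 2752 CPM for Vigun07g296000, with the other bottom libraries at 788 CPM or less. Top R1 replicate 5 stood at 1224 CPM for Vigun08g036100, with the other top libraries at 400 CPM or less. Both libraries are among the 3 that lay nearest to the other group on the first principal component.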

How the results depend on the processing

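The counts of called, higher, lower and 2-fold genes stayed within 1.5 times their values under the 18 other settings run, and no called gene tested there changed the sign of its fold change. Leaving out 1 library gave 7508 to 8888 called genes; library size alone gave 9070, of which 39.9% were higher in place of 51.6%. Vigun07g296000 gave 2.47 to 4.02 without 1 library, the highest without bottom replicate 4. The interaction count was 22 with DESeq2's size factors, 51 with a replicate block within stage, 470 with DESeq2, 2 in a fit of the 4 groups, 3 without the 3 nearest libraries (chosen after seeing the data) and 0 to 298 without 1 library; the cause was not tested. Runs of 3 or more neighbours numbered 120 higher and 102 lower among all gene models, where untested models end a run. Without 1 library, the top minus bottom differences at R1 were 1.38 to 2.01 percentage points for the 10 most abundant genes, -412 to -292 for the genes holding 50% of counts, 1.53 to 2.10 points for 1-exon models, 0.930 to 1.31 points for models under 1000 bases, and -0.0474 to 0.00717 for the distance from the group median, which did not pass in any of these fits (0.158 ± 0.0620 at the top, 0.176 ± 0.0334 at the bottom, median absolute log2 CPM, n = 5; exact permutation p = 0.571). Deviations of same-numbered top and bottom libraries correlated at -0.166 to 0.158, and those of different-numbered ones at -0.15 to 0.158. The labels do not say whether a replicate number stands for a shared plant or plot. These values therefore do not settle whether the groups are paired. With the replicate block within stage, 9201 genes were called, and 6423 in the 2 groups alone with a block (8161 without it); 8161 and 6423 rest on 18815 tested genes.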
